A study of Homo sapiens with 10 samples.

Results

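Transcription factors of mesenchymal cells were followed by bulk RNA-seq during the differentiation of H1 cells towards hepatocytes. H1 is a widely used human embryonic stem cell (hESC) line. The list held 10 genes chosen by name, namely SNAI2, ZEB2, TWIST1, PRRX1, FOXF1, HAND1, HAND2, MEIS1, MEIS2 and TCF21. Of these, 6 were found among the 12125 genes of the table (SNAI2, ZEB2, HAND1, FOXF1, MEIS1 and MEIS2), and 4 were not analysed here (TWIST1, PRRX1, HAND2 and TCF21). There was 1 library for each of 10 days, all of the same unmodified line. Day 0 was the untreated culture. Days 1, 2 and 3 had Activin A at 100 ng per ml, days 5 and 7 had FGF4 (30 ng per ml) plus BMP2 (20 ng per ml), and days 9 and 11 had HGF and KGF, each at 20 ng per ml. Day 21 had Oncostatin M (OSM) at 20 ng per ml. The label of day 13 names OSM, whereas the days counted in the protocol make it the last day in HGF and KGF.

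These factors are known from mesenchymal cells, which are loosely attached and migratory. SNAI2 and ZEB2 are zinc finger repressors of epithelial genes such as CDH1 and belong to the classical factors of the epithelial to mesenchymal transition (EMT). HAND1, a basic helix-loop-helix factor, and FOXF1, a forkhead factor, are known for the lateral plate and splanchnic mesoderm, the tissue that surrounds the gut and gives rise to the mesenchyme of the liver. MEIS1 and MEIS2 are homeobox factors of the TALE class, which bind DNA together with PBX and HOX proteins.

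The unit is the GC-normalized value of the deposited table, called the value below. Library totals lay between 2330948 and 2362740 and library medians between 81 and 82, so the depth of a library could not be read from the values. They were not scaled to gene length, and levels were not compared between genes. Differences were taken on the scale of log2(value + 1), which understates the change of low genes. Without replicates no difference between days has a p-value. As a guide, the standard deviation (SD) of the log2 difference between days 9 and 11, which share a medium, over the 500 genes nearest in level was 0.93 at a value of 10, 0.51 at 50, 0.33 at 100 and 0.26 at 1000. This spread is called the library spread below, and it also holds any real change between those days. In bulk RNA, fewer cells of a type and less RNA per cell cannot be told apart.

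The 6 factors were at or near 0 in the stem cells and on the Activin days, and all had higher values on every day from day 7 to day 21. On days 0 to 3, 13 of the 24 values were 0 and the highest was 8, for SNAI2 on day 2. From day 7 on, none of the values was 0, and the highest was 980, for HAND1 on day 13. HAND1, FOXF1, MEIS2 and SNAI2 were highest at day 13, whereas ZEB2 and MEIS1 were highest at day 21.

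**Figure D1:**
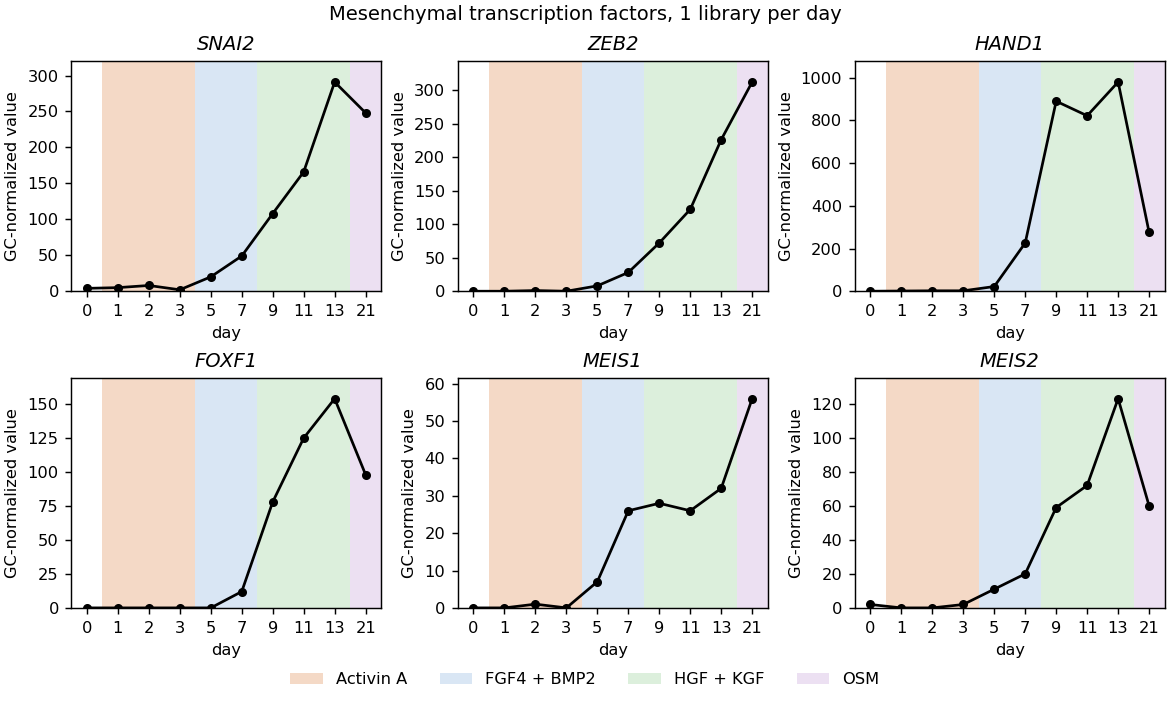
GC-normalized value (vertical axis, linear, from 0, with its own range for each gene) of the 6 factors against the day of differentiation (horizontal axis, days evenly spaced). Each point is 1 library and shading gives the growth factors, with day 13 placed in the HGF and KGF step. Values of 0 to 8 on days 0 to 3 are followed by a climb from day 5 or 7, with HAND1 at 980 on day 13 and 276 on day 21 and ZEB2 highest on day 21 at 312.

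SNAI2, also known as SLUG, is listed as ENSG00000019549 (chromosome 8, 49830327 to 49834299, minus strand). These and the following intervals are as the table gives them, and the processing notes of the submitters name hg19 and mm10 without saying which was used for what. The identifiers are human. The interval of HAND1 ends at 153857824, whereas its GRCh38 promoter begins at 154478178, so these positions are not comparable with the promoter positions given below. SNAI2 had values of 4 at day 0 and of 5, 8 and 2 on days 1, 2 and 3. It then had 20, 49, 108, 166, 291 and 248 on days 5, 7, 9, 11, 13 and 21. Every library from day 5 on was above every earlier one. In the order of its levels, days 3, 0, 1 and 2 lay within the library spread of their neighbours, as did days 21 and 13, and each other step was larger than the spread.

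ZEB2, known also as SIP1, is listed as ENSG00000169554 (chromosome 2, 145145568 to 145278621, minus strand). It was listed at 0 on days 0, 1 and 3 and had a value of 1 on day 2. The values on days 5, 7, 9, 11, 13 and 21 were 8, 28, 72, 122, 226 and 312. The values stood in the order of the days from day 3 to day 21, and each of these steps was larger than the library spread. The smallest of them was the last, 0.46 on the log2 scale from day 13 to day 21 against a spread of 0.27. In GENCODE release 29, 5 genes on the opposite strand overlap ZEB2, ZEB2-AS1 among them, and since the counting is not stated to use strand, reads of such a partner cannot be told apart from those of the gene.

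HAND1 is listed as ENSG00000113196 (chromosome 5, 153854532 to 153857824, minus strand). Its value was 0 at day 0, 1 at day 1 and 2 on days 2 and 3. It came to 22, 226, 890, 822, 980 and 276 on days 5, 7, 9, 11, 13 and 21. HAND1 thus stood at a plateau from day 9 to day 13, whose 3 libraries lay within the library spread of each other in order, and days 7 and 21 lay well below it. The step from day 5 to day 7, within the FGF4 and BMP2 medium, was 10.3-fold, and the step from day 7 to day 9 was 3.94-fold.

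FOXF1 is listed as ENSG00000103241 (chromosome 16, 86544133 to 86548076, plus strand). It was listed at 0 in all 5 libraries from day 0 to day 5. Days 7, 9, 11, 13 and 21 gave 12, 78, 125, 154 and 98. FOXF1 was the only one of the 6 factors that was still at 0 at day 5, where the other 5 had values from 7 to 22. Days 9 and 21 did not differ beyond the library spread, nor did days 11 and 13.

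MEIS1 is listed as ENSG00000143995 (chromosome 2, 66660584 to 66667099, plus strand). It was at 0 on days 0, 1 and 3 and at 1 on day 2, and on days 5, 7, 9, 11, 13 and 21 it had 7, 26, 28, 26, 32 and 56. Days 7, 9, 11 and 13 lay within the library spread of their neighbours in order, and day 21 lay above them by 0.79 on the log2 scale against a spread of 0.44. The interval listed for MEIS1 spans 6516 bases, 4.64% of the width of the gene in GENCODE release 29, whereas those of the other 5 factors span from 80.6% to 100% of theirs. Of the 11961 genes with a width in that release, 3.34% had an interval under 10% of it. Whether the low values of MEIS1 are those of a part of the gene was not tested.

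MEIS2, the second TALE factor, is listed as ENSG00000134138 (chromosome 15, 37181409 to 37392086, minus strand). It had values of 2, 0, 0 and 2 on days 0, 1, 2 and 3, and 11, 20, 59, 72, 123 and 60 on days 5, 7, 9, 11, 13 and 21. Unlike MEIS1, MEIS2 had more at day 9 than at day 7 by 1.51 on the log2 scale, against a library spread of 0.43. Days 9, 21 and 11 lay within the spread of their neighbours in order, and day 13 stood above them. In GENCODE release 29, 2 genes on the opposite strand overlap MEIS1 and 1 overlaps MEIS2.

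Promoters of some of the factors were searched for letters that the families of the list are known to bind. Those of HAND1 and ZEB2 are shown, the factors nearest to and farthest from their own highest value at day 9. RefSeq promoters of 300 bases (250 before the start and 50 after, GRCh38.p14) were held for HAND1, ZEB2 and MEIS1, and 2 for MEIS2. The E box CANNTG, which basic helix-loop-helix factors bind and which holds the CAGGTG bound by SNAI and ZEB factors, was found in 1 of the 5 promoters, that of ZEB2, as CACATG beginning 180 bases before the start. Of 35116 promoters of this length, 68.7% held CANNTG on either strand and 20.6% held CAGGTG or its complement CACCTG. None of the 5 held CAGGTG, the MEIS letters TGACAG (15.8% of all promoters, either strand) or the forkhead letters TGTTTAC (3.42%). Capitals mark the E box. HAND1 lies at chr5:154478178-154478477 and ZEB2 at chr2:144520070-144520369, both on the minus strand.
HAND1: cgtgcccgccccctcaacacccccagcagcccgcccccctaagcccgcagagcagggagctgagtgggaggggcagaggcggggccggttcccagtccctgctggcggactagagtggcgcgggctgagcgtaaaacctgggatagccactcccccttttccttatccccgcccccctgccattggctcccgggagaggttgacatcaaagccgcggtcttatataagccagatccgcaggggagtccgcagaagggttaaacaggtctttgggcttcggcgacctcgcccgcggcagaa
ZEB2: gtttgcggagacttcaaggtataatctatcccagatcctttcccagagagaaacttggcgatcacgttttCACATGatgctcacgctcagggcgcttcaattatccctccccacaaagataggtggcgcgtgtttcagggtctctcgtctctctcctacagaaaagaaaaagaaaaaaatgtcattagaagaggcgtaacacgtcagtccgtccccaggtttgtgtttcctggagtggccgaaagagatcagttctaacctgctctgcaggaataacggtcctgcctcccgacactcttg

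The question set for these genes was how the days of Activin A, when definitive endoderm forms, compare with days 7 to 21. All 6 factors were higher on the later days, without overlap between the 3 Activin days and the 5 later days. The mean log2(value + 1) of HAND1 was 1.39 on the Activin days and 9.07 on days 7 to 21, a difference of 7.68. For ZEB2 the means were 0.33 and 6.82, and for SNAI2, the member with the highest values on the Activin days, 2.45 and 7.19. MEIS2 differed by 5.35 and MEIS1 by 4.72. FOXF1 was listed at 0 on all Activin days, so that no fold is given, and had a mean value of 93.4 on the later days.

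A gene was called here when its difference of mean log2(value + 1) was at least 2, the days did not overlap and its highest value over these days was at least 50. By this rule 6 of the 6 factors were called higher and 0 lower. Of all 10503 genes tested, 7.20% were called higher and 4.48% lower. The count of factors is fixed in large part by the table itself. Each gene of the table reaches 26 or more in 2 or more libraries, and all 6 factors were under 26 on days 0 to 3, so they are in the table through their later libraries alone. Of the genes tested that were likewise under 26 on days 0 to 3, 66.2% were called higher, and the count of 6 therefore gives no support to a rise shared by these factors. MEIS1 was called only through its value of 56 at day 21, and without that day 5 of 6 were called. The median difference of the 6 factors was 5.76, beside -0.10 over all genes and 2.71 over genes under 26 on days 0 to 3. With libraries scaled by the median of ratios the median of all genes moved to 0.01, and all 6 factors were called again.

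**Figure D2:**
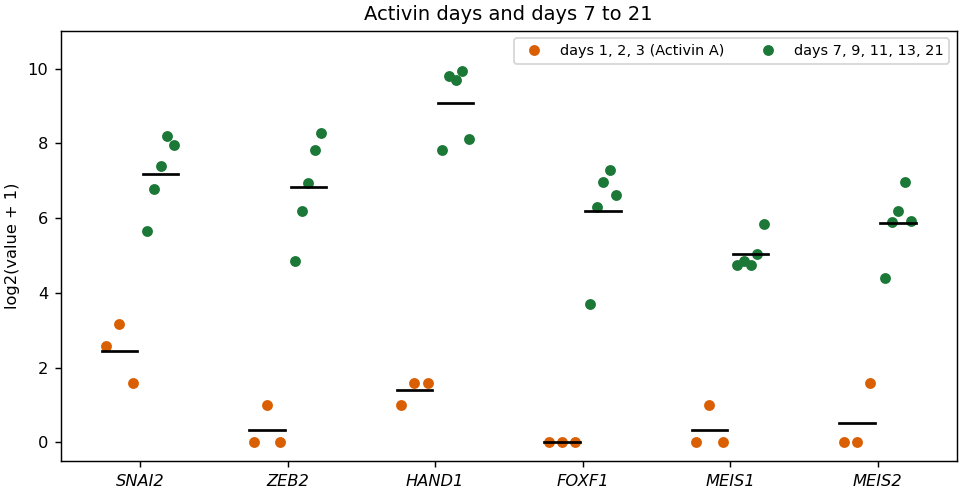
log2(value + 1) of the 6 factors on days 1, 2 and 3 with Activin A (orange points) and on days 7, 9, 11, 13 and 21 (green points), with 1 point per library in the order of the days from left to right and a black line at the mean of each set. No green point lies at or below an orange point of the same gene, and the means of HAND1 are 1.39 and 9.07.

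Between day 0 and day 3, when the stem cells became definitive endoderm, 0 of the 6 factors were at least 4-fold higher and 0 at least 4-fold lower, with the larger value at least 50. Over all genes 3.94% were higher and 2.16% lower. None of the factors reached a value of 50 on either day, so none could be counted. From day 3 to day 7, HAND1 alone was counted, from 2 to 226, beside 5.63% of all genes higher and 4.41% lower. Of the genes under 26 on days 0 to 3 that could be counted at this step, 89.1% were higher. The other 5 factors were still under 50 at day 7, with values from 12 (FOXF1) to 49 (SNAI2).

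From day 7 to day 13, 5 of the 6 factors reached a value of 50 and could be counted, and these 5 were at least 4-fold higher at day 13. Of all genes counted 3.08% were higher and 2.46% lower, and of the genes under 26 on days 0 to 3 30.2% were higher. FOXF1 and MEIS2 were under 26 at day 7 too and are in the table only through days on which they were higher, so the count is a description. FOXF1 was higher 12.8-fold, ZEB2 8.07-fold, MEIS2 6.15-fold, SNAI2 5.94-fold and HAND1 4.34-fold in the ratio of the values. MEIS1, with 26 and 32, could not be counted. With a larger value of at least 200, 3 factors were counted as higher. The median log2 difference was 2.55 for the 6 factors, 0.54 for genes under 26 on days 0 to 3 and -0.04 for all genes.

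The factors reached their highest level by different routes. Relative to its own highest value, MEIS1 was at 46.4% and HAND1 at 23.1% at day 7, against 7.79% for FOXF1, 8.97% for ZEB2, 16.3% for MEIS2 and 16.8% for SNAI2. By day 9 HAND1 had reached 90.8%, FOXF1 50.6%, MEIS1 50% and MEIS2 48.0%, while SNAI2 had 37.1% and ZEB2 23.1%. The first day at 50% or more was day 9 for HAND1, FOXF1 and MEIS1, day 11 for SNAI2 and MEIS2 and day 13 for ZEB2. FOXF1, MEIS1 and MEIS2 lay so close to 50% at day 9 that their order is not resolved. MEIS1 had 26 at day 7 and 28 at day 9, within the library spread. At day 9 the EMT factors SNAI2 and ZEB2 were thus lower relative to their peaks than the other 4 factors, a description of single libraries. The neighbouring days did not show this split. At day 7 SNAI2 was not below MEIS2, nor ZEB2 below FOXF1, and at day 11 SNAI2 had 57.0% and MEIS1 46.4%.

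Between day 13 and day 21, in OSM, none of the 6 factors changed 4-fold in either direction, beside 2.28% of all genes higher and 1.62% lower. Their values diverged within that limit. HAND1 went from 980 to 276, a log2 difference of -1.82 against a library spread of 0.28. MEIS2 went from 123 to 60 (-1.02, spread 0.34) and FOXF1 from 154 to 98 (-0.65, spread 0.30). SNAI2, with 291 and 248, did not differ beyond the spread. ZEB2 went from 226 to 312 (0.46, spread 0.27) and MEIS1 from 32 to 56 (0.79, spread 0.44). The spread is 1 SD, which genes without a change can exceed too. HAND1, MEIS2 and FOXF1 were therefore lower at the last day beyond the spread, and ZEB2 and MEIS1 were higher, while all 6 remained above their Activin days.

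**Figure D3:**
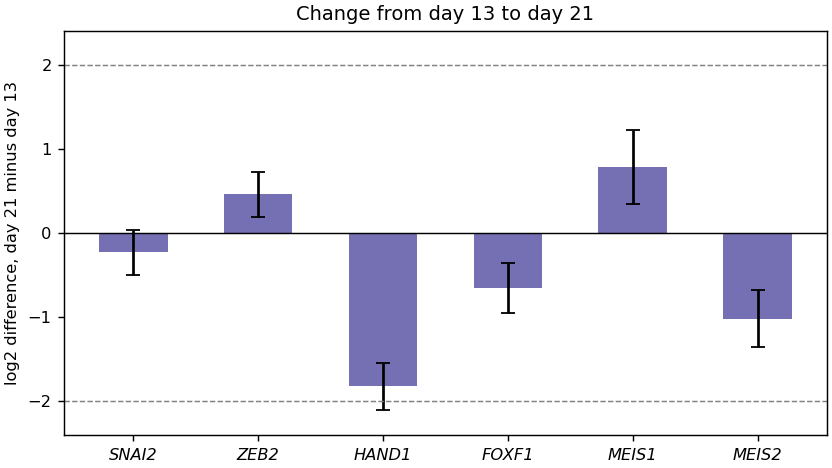
Difference of log2(value + 1) between day 21 and day 13 (bars from 0) for each factor, 1 library per day. Error bars are the library spread, 1 SD of the log2 difference between days 9 and 11 over the 500 genes nearest in level, and dashed lines mark a 4-fold change. HAND1 has the lowest bar (-1.82) and MEIS1 the highest (0.79), and no bar reaches a dashed line.

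The listed partners of these factors were all found except PBX4, and few were called. Basic helix-loop-helix factors such as HAND1 bind DNA with the E proteins TCF3, TCF4 and TCF12, and the ID proteins hold E proteins away from DNA. Of these 7 genes, all found, 1 was called higher on days 7 to 21 and 0 lower (7.20% and 4.48% of all genes), with a median difference of -0.04. The one called was ID2, with values from 76 to 137 on the Activin days and from 422 to 1000 later. Named after their values were seen, TCF12 lay between 192 and 345 over all libraries, and ID1 was highest on day 5 with 872 and had 45 on day 21. The other E proteins, also named so, were less even. TCF3 had 822 on day 1 and 194 on day 21, and TCF4 had 338 on day 1, 54 on day 5 and 314 on day 13. Of 7 TALE genes that pair with MEIS1 and MEIS2 or resemble them, 6 were found, 0 were called higher and 1, PBX3, lower (74 at day 3, 6 at day 21), but not without day 21.

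Other EMT factors did not share the course of SNAI2 and ZEB2. Of 14 listed, 6 were found, 0 were called higher and 1 was called lower, GSC, an organizer factor also in the list of endoderm markers, with 315 on day 3 and 0 on day 13. The median difference of these 6 was -0.18. SNAI1 and ZEB1, the paralogs of SNAI2 and ZEB2, were named after their values were seen. They had 4 and 1 on day 0 and were above 20 on each Activin day. SNAI1 had 23, 36 and 24 on days 1, 2 and 3 and 6 at day 21, and ZEB1 had 22, 36 and 40 and then 50. Neither paralog was confined to the Activin days, SNAI1 having 47 on day 7 and ZEB1 52 on day 9. With no value of 50, SNAI1 could not be called in either direction, so the counts say nothing about it. ZEB1 only just reached that limit.

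Of 19 other factors known from splanchnic and liver mesenchyme, 8 were found, 4 were called higher and 0 lower, with a median difference of 3.93. Over all genes 7.20% were called higher, and 66.2% of those under 26 on days 0 to 3, and 2 of the 8 were called with a highest value of at least 200. NR2F2, the nuclear receptor COUP-TFII, had 0, 62 and 234 on days 3, 7 and 21. TBX20 had 12 at day 3 and 90 at day 13, and MEF2C had 4 and 112. TBX3, a factor of liver bud outgrowth, had 42 on day 3 and was highest on day 7 with 768, before the peaks of all 6 factors. FOXF2, the closest relative of FOXF1 and named after its values were seen, had 0, 4, 30 and 36 on days 5, 7, 9 and 13, and could not be called at these low values. The limit set by the table holds for genes such as NR2F2 too.

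The next list held epithelial genes that SNAI and ZEB factors are known to repress. Of these 19 genes, all found, 5 were called higher on days 7 to 21 and 0 lower, beside 7.20% and 4.48% of all genes, and the median difference was 1.06. The count depended on the early days, with 3 called without day 1 and 3 with day 0 added to the Activin days. OVOL1, a repressor of EMT factors, had 24 on day 0, 0, 2 and 8 on the Activin days and from 20 to 55 on days 7 to 21. It was thus under 26 on days 0 to 3, and of such genes 66.2% were called higher. The claudin CLDN4 had 100 on day 0, 30 to 32 on the Activin days and 110 to 290 later, and CLDN3 had 30, then 3 to 16, then 30 to 80. These 3 genes were thus lower on the Activin days than on day 0 as well. The desmosomal gene DSP had 376 on day 0, 431 to 770 on the Activin days and 2022 to 2970 later. CDH1, the best known target and named after its values were seen, was not called. It had 697 on day 0, 808, 484 and 342 on the Activin days and 384, 237, 316, 407 and 1089 on days 7, 9, 11, 13 and 21. Its difference was -0.29. GRHL2 (-1.23), CLDN7 (-0.63) and ESRP1 (-0.57), also named after their values were seen, had differences below 0 too and were not called. Those of the rest of the list were above 0.

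Markers of several cell types also differed between the Activin days and days 7 to 21. The shares to set beside their counts are 7.20% higher and 4.48% lower over all genes. Among genes under 26 on days 0 to 3, as LUM, COL3A1, TTR, SERPINA1, APOB and TF were, 66.2% were called higher. Of 12 fibroblast and stroma markers, all found, 8 were called higher on days 7 to 21 and 1, THY1, lower. Their summed values were between 2420 and 4207 on the Activin days and between 24858 and 83126 later. The matrix gene LUM had 0 on each Activin day and 4866 at day 13, COL3A1 had 21 at day 3 and 6502 at day 13, COL1A1 had 192 and 3861, and the growth factor receptor PDGFRA had 20 and 333. The highest levels of the table are shared between libraries, and COL3A1 had the same value, 6502, on days 9, 11, 13 and 21, so that differences among the highest genes are not resolved. The 6 factors, at 980 or less, lay below these highest levels. Values shared between libraries occurred under 980 too, such as 956 for DNMT3B on day 3 and for EPCAM on day 9. Both were named after their values were seen. Hepatocyte markers moved as well, with 9 of 9 called higher and summed values from 107 to 160 on the Activin days and from 37911 to 91003 later. The pluripotency markers were lower in 5 of 6 and the definitive endoderm markers in 4 of 7, beside 0 of each called higher. The part of these cells in the values of the 6 factors was not tested.

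Markers of other tissues in which these factors act, and of other cell types, were counted in the same way. Over all genes 7.20% were called higher and 4.48% lower. Of genes under 26 on days 0 to 3, as ACTA2, LRRN4, CDH5 and CD68 were, 66.2% were called higher. Several of these small marker counts changed when 1 library was left out. Of 7 neural crest markers 1 was found, FOXD3, which was called lower, but not without day 1, and was at 0 from day 5 to day 21. Of 9 cardiac muscle markers 3 were found and 1, TTN, was called higher (99 at day 3, 2638 at day 7), with 2 called without day 3 and 1 called lower without day 1. Of 6 smooth muscle markers 5 were found and 1, ACTA2, was called higher (2 at day 3, 209 at day 9), with 2 called without day 1 and 3 without day 7. The cardiac markers summed to between 55 and 443 on the Activin days and between 555 and 2747 later, and the smooth muscle markers to between 1312 and 1564 and between 398 and 1157. Of 10 hepatic stellate cell markers 4 were found, 0 were called higher and 1, LRAT, was called lower, and of 6 mesothelial markers 2 were found and 1, LRRN4, was called higher (16 at day 3, 78 at day 9), and without day 1 neither LRAT nor LRRN4 was called. Among 7 of 9 endothelial markers found, CDH5 was called higher (9 at day 3, 152 at day 13), with 2 genes called higher without day 1 or without day 7 and 1 lower without day 1, and the list summed to between 434 and 789 on the Activin days and between 462 and 2167 later. Among 3 of 9 macrophage markers found, CD68 was called higher (0 at day 3, 259 at day 21), with sums from 18 to 23 and from 13 to 525. Of 7 early mesoderm markers 3 were found, of which MIXL1 was called lower and PDGFRA, also in the stroma list, higher. Some markers of the muscle and endothelial lists went lower but were not called by the main rule. Named after their values were seen, TAGLN had 1324 at day 3 and 206 at day 21, and CNN1 86 and 12. The cardiac marker MYL7 had 169 and 3 on these days, and the endothelial marker VWF 309 and 12.

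**Figure D4:**
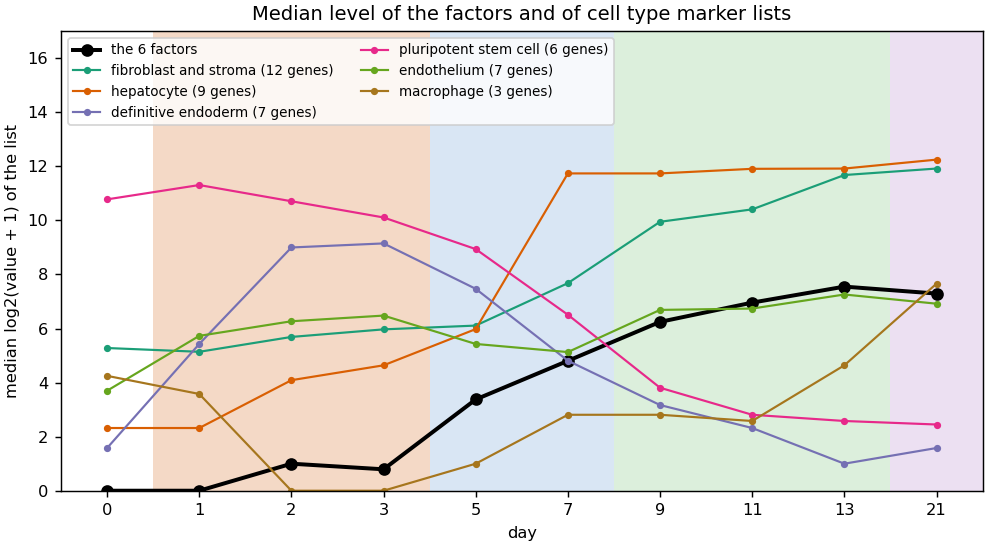
Median log2(value + 1) of the 6 factors (black) and of 6 cell type marker lists (colours, with the number of genes found) against the day, 1 library per day. Shading from left to right gives Activin A, FGF4 with BMP2, HGF with KGF, and OSM. The median of the factors goes from 0.79 at day 3 to 7.55 at day 13 and that of the fibroblast and stroma markers from 5.97 to 11.68, while the definitive endoderm markers go from 9.15 to 1.00.

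For each factor the 3 genes with the most similar course were sought, by Pearson's r of log2(value + 1) over the 10 libraries among genes that reached 50 in some library. The libraries fall into an early and a late set, and any gene that is low first and high later scores well, so that r is a description only. FOXF1 was most like WISP1, a secreted matrix protein (r = 0.9994), which was also at 0 up to day 5 and had 34, 540 and 357 on days 7, 13 and 21. Its next were FIBIN (0.9938) and MMRN2 (0.9937), an endothelial matrix gene. SNAI2 was nearest to TNS3 (0.9910), a focal adhesion gene, GBF1 (0.9873) and HOXB3 (0.9844), and ZEB2 to CRIM1 (0.9941), GBF1 (0.9940) and RBM5 (0.9911). HAND1 was nearest to SIK2 (0.9916), GJB1 (0.9913), the connexin of hepatocytes, and SH3RF2 (0.9891). MEIS1 was nearest to NR2F2 (0.9940), the apolipoprotein gene APOB (0.9892) and HAVCR1 (0.9882). MEIS2 was nearest to HERPUD2 (0.9911), CEBPA (0.9890), a hepatocyte factor, and ACAD11 (0.9863). By Spearman's rho, 3 of these 18 entries (WISP1, CEBPA and ACAD11) were again among the 3 genes nearest to their factor.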

How the data were processed

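Bulk RNA-seq of 10 days, with 1 library per day and no replicate, was analysed. The authors prepared libraries with a TruSeq RNA kit, mapped reads with Bowtie2 2.2.0 and RSEM 1.2.17 to an Ensembl release 76 transcriptome that the methods call mm10, although symbols and identifiers are human, and corrected for GC content with EDASeq. The deposited values are scores and not counts: they are whole numbers with almost the same distribution in every library, so depth is lost and no count model was used. No test was made, because each day is 1 library and days are not replicates.

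Differences of log2(value + 1) were taken between single days and between means of the Activin days (1, 2, 3) and days 7 to 21. All 10 columns were matched to a day by name. Members and gene lists were chosen with earlier results of these data known. Named genes were the 6 factors, up to 4 called genes of each list with the largest differences and 3 genes most like each factor, and others are marked. Alternatives were other pseudocounts, filters, thresholds, scalings and sets of days. Gene widths and opposite-strand genes came from GENCODE release 29 (GRCh38) by identifier, and promoters from RefSeq. The promoter search left out chromosome 8, on which SNAI2 lies, and used none for FOXF1. Python 3.11.15, numpy 2.4.6, pandas 2.3.3 and matplotlib 3.10.9 were used, and the code was tested on simulated data.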

Additional observations from a re-analysis of the deposited data

How the results depend on the processing

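All 6 factors kept a positive difference between days 7 to 21 and the Activin days under all 19 alternatives, and all 6 were called in 16 of them. With a highest value of at least 200, 3 were called (SNAI2, ZEB2 and HAND1), and 3 were also counted as at least 4-fold higher at day 13 than at day 7. With days 5 to 21 in place of days 7 to 21, 5 were called, FOXF1 being at 0 at day 5, and without day 21 also 5, MEIS1 then having no value of 50. The median difference of the factors depended on the pseudocount, with 8.01 at 0.1 and 3.97 at 5, since most values on the Activin days are 0 to 2. With no filter on low values, 6 factors in place of 1 were at least 4-fold higher at day 7 than at day 3. By Spearman's rho in place of Pearson's r, 3 of the 18 entries were again among the 3 genes most similar to their factor. Of the counts between single days, 46 of 48 were within 1.5 times the value given, and of the counts of marker and gene lists 607 of 646. A count of 0 that stayed at 0 was taken as within this limit. Most of the counts between single days were of that kind, so these shares say little. The unknown depth limits all values under about 50, and nothing here separates a day from its library.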
